A study of Mus musculus with 6 samples.

Results

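The IL-6, IL-12 and IL-10 families of cytokines were examined through 9 genes, Il6, Osm, Lif, Il12a, Il12b, Il23a, Il27, Ebi3 and Il10. They were chosen by gene symbol, with no measured value in the rule but with earlier results of these data known. All 9 were found among the 54532 genes of the table. RNA-seq was performed on poly-A RNA of peritoneal macrophages from wild-type (WT) male C57BL/6J mice aged 6 to 8 weeks, collected 5 days after an injection of 3% thioglycolate, so the cells are elicited and not resident. Control cells were untreated. Model cells were given LPS (500 ng/mL), an outer membrane lipid of bacteria sensed by TLR4, for 5.5 h and then ATP (2 mM) for 0.5 h. In MUS cells 50 μM muscone, a macrocyclic ketone of musk, was added to that treatment, 5 h after LPS and 0.5 h before ATP. Each group had 2 libraries, whose replicate number, 1 or 2, is also their batch in the labels. Nothing in the sources says that the replicates came from separate cultures or animals, so p-values measure the spread between these libraries, which may be technical.

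Cytokines of the IL-6 type signal through receptor complexes that contain gp130, the product of Il6st, and activate JAK kinases and STAT3. IL-12 family cytokines are heterodimers that share subunits, since the product of Il12b pairs with that of Il12a to form IL-12 and with that of Il23a to form IL-23, while the products of Il27 and Ebi3 form IL-27. Macrophages make these cytokines after TLR signals, and IL-10 restrains their production through STAT3 and its target genes.

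Expression was read as FPKM, fragment numbers divided by gene length and by a scale of the library, which allows levels of genes of different length to be set side by side. The fragments on genes, recovered from the FPKM values, were 15742538 and 17135442 in the Control libraries, 15529580 and 15526321 in Model, with 16222724 and 16481372 in MUS. Depending on the library, 1 fragment on a gene of 1 kb was worth 0.0437 to 0.0709 FPKM. Of 54409 gene identifiers shared with GENCODE M21, 98.3% matched its start and end, so positions are on GRCm38. None of the 9 genes shared a 50-base stretch of transcript with another gene (0% of the stretches of each). This value does not settle the assignment of fragments where Il27 and Ebi3 overlap genes on the opposite strand, as given below.

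The cells carried macrophage transcripts in every library. Lyz2, which encodes lysozyme, was the most abundant of 8 macrophage markers, with 10252 and 12007 FPKM in Control, 11370 and 7275 in Model, with 10904 and 9016 in MUS. The 8 markers summed to 11961 and 13746 FPKM in Control, 14283 and 9574 in Model, with 13236 and 11397 in MUS. Among them, Fcgr1 and Cd14 rose in Model vs. Control and Csf1r, the CSF-1 receptor, fell (log2 fold changes of 3.57, 2.64 and -1.37, limma adjusted p = 0.00326, 0.0258 and 0.0289). The calls of Cd14 and Csf1r were lost in 8 and 6 of 15 alternative fits, with adjusted p of up to 0.182 and 0.107.

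Markers of other cells that a peritoneal lavage can hold were low, with exceptions that moved with LPS and ATP. The 8 neutrophil markers summed to 13.7 and 30.9 FPKM in Control, 112 and 57.7 in Model, with 64.6 and 50.8 in MUS, nearly all from S100a8, while S100a9, Ly6g, Retnlg and Elane were listed at 0 in all 6 libraries. The 8 T and NK cell markers summed to 0.250 and 0.289 FPKM in Control, 3.34 and 1.54 in Model, with 2.75 and 2.02 in MUS, mostly from Lck in the treated libraries, with Cd3d, Cd3e and Cd3g at most 0.0781 FPKM in any library. The 6 dendritic cell markers summed to 1.52 and 2.50 FPKM in Control, 7.24 and 7.33 in Model, with 5.82 and 8.35 in MUS, led by Ccr7 in the treated libraries and by Cd209a in Control, whereas Flt3 stayed at or below 0.161 FPKM. Cd209a went the other way, with 0.746 and 1.10 FPKM in Control and 0.403 and 0.408 in Model. S100a8, Lck and Ccr7 each passed the test in Model vs. Control (log2 fold changes of 1.90, 1.47 and 1.97, limma adjusted p = 0.0365, 0.0183 and 0.00683), but the calls were lost in 8 of 15, 6 of 14 and 1 of 14 alternatives, with adjusted p of up to 0.171, 0.109 and 0.0694. Lck and Ccr7 were below 1 FPKM in both Control libraries and also reached the filter through the treated ones. The 6 fibroblast and mesothelial markers summed to 18.6 and 17.3 FPKM in Control, 20.9 and 32.8 in Model, with 20.6 and 23.2 in MUS, mostly from Col1a1, Col1a2 and Dcn. Dcn rose with a log2 fold change of 1.18 (limma adjusted p = 0.0161), a call lost in 8 of 15 alternatives, among them scaling to the fragment totals (0.76) and voom (0.92). The 5 eosinophil markers summed to 4.17 and 2.78 FPKM in Control and to 1.42 to 1.95 elsewhere, led by Siglecf, with Prg2, Epx and Ear6 listed at 0. The 5 mast cell markers summed to at most 1.17 FPKM in a library, and the B cell markers Cd79a, Cd79b and Ms4a1 stayed at or below 0.300, 0.795 and 0.332 FPKM. The part of these cells in the cytokine values was not tested, and in bulk RNA fewer cells of a type and less RNA per cell cannot be told apart.

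Among the libraries, Control replicate 2 and Model replicate 1 stood apart. Control replicate 2 held more RNA than Control replicate 1 of 8 of the 9 cytokine genes, Osm being the exception. Of the 930 genes upregulated in Model vs. Control, 85.9% were higher in Control replicate 2 than in Control replicate 1, compared with 53.2% of the 9794 genes tested. Relative to the Model mean, the level of Control replicate 2 was 0.126% for Il6, 0.910% for Il10, 1.37% for Il27, 2.60% for Il12b, 3.75% for Il12a and 21.1% for Il23a. In Model replicate 1, 24906 genes had at least 1 fragment, against 17406 to 19200 in the other libraries. For the cytokine genes that passed the test in Model vs. Control, values without each of these libraries are given below.

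LPS and ATP raised 7 of the 8 cytokine genes that could be tested, namely Il6, Osm, Lif, Il12a, Il12b, Il27 and Il10. The background is 9.5% of all genes tested that were upregulated in the same comparison, but Il6, Lif and Il10 were below 1 FPKM in both Control libraries and reached the filter through the treated ones, which favors a rise of these 3 before any test. The members were also chosen with earlier results of these data known, so their count beside this background is a description. Ebi3 was expressed in all groups and did not pass the test. Il23a was the member that did not reach a mean of 1 FPKM over the 6 libraries and was not tested. Its direction is given by its values only.

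Differential expression was tested with limma on log2(FPKM + 1) for genes averaging at least 1 FPKM, in one model of the 6 libraries. DEGs were genes at or under 0.05 after Benjamini-Hochberg adjustment whose log2 fold change exceeded 1 in size. Fold changes on this scale understate those of genes with low FPKM. With 2 libraries against 2, an exact permutation test cannot go below p = 0.333, so the p-values depend on the variance that limma shares between genes. Model vs. Control gave 1475 DEGs (15.1% of the genes tested), 930 up and 545 down (5.56%). The up to down split depended on scaling, with 707 up and 715 down after quantile normalization, 646 and 1554 after scaling to the fragment totals, and 684 and 2050 with voom on the recovered fragments. The latter 2 moved the median log2 fold change of all genes from 0.04 to -0.40 and -0.50, because the library scale of the deposited FPKM was 1.45 and 1.34 times the fragment total in Control and 0.909 to 0.998 times elsewhere. The 7 cytokine calls held under all 3, and each was far above these shifts.

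**Figure D1:**
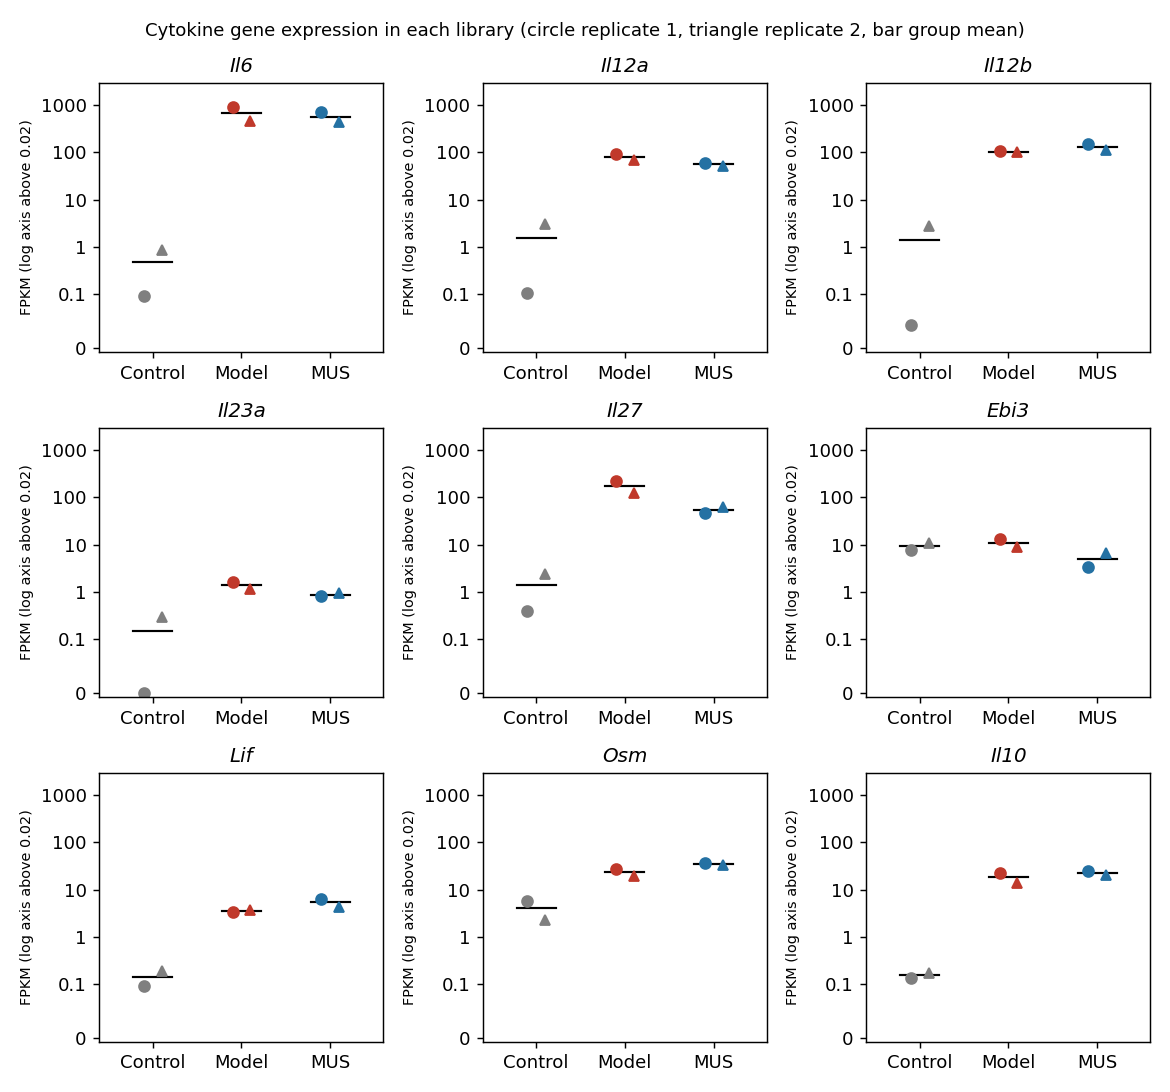
FPKM of the 9 cytokine genes in each of the 6 libraries, with the FPKM axis logarithmic above 0.02 and linear below; circles are replicate 1, triangles are replicate 2 and bars are group means of 2 libraries. In 8 panels both Model libraries lie above both Control libraries, and in the Ebi3 panel Control and Model overlap while both MUS libraries lie below them.

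Il6, which encodes the founding ligand of gp130 receptors, was the most abundant of the 9 after stimulation. Its FPKM was 0.0901 and 0.864 in Control, from 5 and 48 fragments, 917 and 454 in Model, with 716 and 436 in MUS. Both Control libraries were near 0, and the Model and MUS libraries overlapped. Model vs. Control gave a log2 fold change of 8.82 (SE 0.48, limma adjusted p = 0.000504), or 9.72 within batch 1 and 7.93 within batch 2. It was 9.21 without Control replicate 2 and 8.32 without Model replicate 1 (limma adjusted p = 0.000325 and 0.0102). By mean FPKM, Il6 ranked 66 among all genes in Model and 11458 in Control.

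Osm encodes oncostatin M, a gp130 ligand of activated myeloid cells, and was already expressed in Control. Its FPKM was 5.85 and 2.27 in Control, 27.4 and 19.3 in Model, with 35.8 and 32.8 in MUS. The groups did not overlap, and here Control replicate 1 was the higher Control library. In Model vs. Control it had a log2 fold change of 2.34 (SE 0.38, limma adjusted p = 0.00972), with 2.05 within batch 1 and 2.63 within batch 2. It was 1.81 without Control replicate 2 (limma adjusted p = 0.0114). The call was lost without Model replicate 1, where the value was 2.10, and without the filter on low values (limma adjusted p = 0.0617 and 0.0810).

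Lif encodes leukemia inhibitory factor, another gp130 ligand, and lies next to Osm on chromosome 11, 16531 bases away on the same strand, with 0 annotated genes between them. Its FPKM was 0.0905 and 0.191 in Control, 3.32 and 3.61 in Model, with 6.40 and 4.25 in MUS. The 3 groups did not overlap, and Lif stayed below Osm in every library. In Model vs. Control its log2 fold change was 1.97 (SE 0.24, limma adjusted p = 0.00399), with 1.99 and 1.95 within the batches. It was 2.03 without Control replicate 2 and 2.01 without Model replicate 1 (limma adjusted p = 0.00696 and 0.0283). The value understates the ratio of group means because 1 is added to low FPKM. The Osm to Lif ratio was 64.7 and 11.9 in Control, 8.23 and 5.35 in Model, with 5.59 and 7.72 in MUS.

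The subunits of IL-12, Il12a (p35) and Il12b (p40, shared with IL-23), rose together. Il12a had 0.103 and 3.01 FPKM in Control, from 4 and 117 fragments, 92.0 and 68.1 in Model, with 60.1 and 51.9 in MUS. Il12b had 0.0222 and 2.71 FPKM in Control, from 1 and 122 fragments, 109 and 100.1 in Model, with 148 and 114 in MUS. For both genes almost all Control fragments came from replicate 2, and no Control library reached the level of a treated one. Log2 fold changes in Model vs. Control were 5.25 for Il12a and 5.76 for Il12b (SE 0.56 each, limma adjusted p = 0.00291 and 0.00214). Without Control replicate 2 they were 6.18 and 6.69, and without Model replicate 1 they were 5.04 and 5.70 (limma adjusted p at most 0.0302). Within batch 1 they were 6.40 and 6.74, and within batch 2, which holds the higher Control library, 4.11 and 4.77.

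Il23a, the p19 subunit that makes IL-23 with p40, stayed low. Its FPKM was 0 and 0.292 in Control, from 0 and 15 fragments, 1.64 and 1.12 in Model, with 0.795 and 0.932 in MUS, from 27 to 52 fragments in the treated libraries. A count of 0 allows up to 0.0584 FPKM in Control replicate 1, counting error only. All treated libraries lay above both Control libraries, and the MUS pair lay below the Model pair. In the fit without a filter Model vs. Control gave a log2 fold change of 1.06 (limma adjusted p = 0.139). Il12b exceeded Il23a 66.3 and 89.3 times in Model and 187 and 122 times in MUS.

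Il27 encodes the p28 subunit of IL-27, and Ebi3 its partner. Il27 had 0.386 and 2.40 FPKM in Control, 227 and 123 in Model, with 45.9 and 61.7 in MUS. The 3 groups did not overlap, with Model highest. Model vs. Control gave a log2 fold change of 6.28 (SE 0.49, limma adjusted p = 0.00118), 6.92 without Control replicate 2 and 5.84 without Model replicate 1 (limma adjusted p = 0.000389 and 0.0159). Ebi3 had 7.73 and 10.7 FPKM in Control, 12.9 and 9.06 in Model, with 3.38 and 6.62 in MUS. Control and Model overlapped for Ebi3, while both MUS libraries were below all others. Model vs. Control gave 0.23 as its log2 fold change (SE 0.34, limma adjusted p = 0.668), and it turned to -0.28 after scaling to fragment totals, -0.30 with voom and -0.0078 without Model replicate 1. The Il27 to Ebi3 ratio was thus 0.0499 and 0.224 in Control and between 9.32 and 17.6 in treated libraries, so p28 RNA went from far below to far above that of its partner.

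Il10 encodes the cytokine that restrains the others. Its FPKM was 0.134 and 0.167 in Control, from 4 and 5 fragments, 22.9 and 13.8 in Model, with 24.7 and 20.7 in MUS. The Control libraries were alike, and Model and MUS overlapped. The ratio of the Model to the Control mean was 122, with a log2 fold change of 4.03 (SE 0.28, limma adjusted p = 0.00107), 4.40 and 3.66 within the batches. It was 4.05 without Control replicate 2 and 3.69 without Model replicate 1 (limma adjusted p = 0.00121 and 0.0102).

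The order of the 9 genes by mean FPKM differed between groups. In Control, Ebi3 led with 9.22 ± 2.11 (SD, n = 2), then Osm with 4.06 ± 2.53, while Il12a, Il27 and Il12b (1.55, 1.39 and 1.37) did not differ beyond their spread and the other genes were below 0.5. The place of Osm rested on Control replicate 1. In Control replicate 2, Osm (2.27 FPKM) lay below Il12a, Il12b and Il27 (3.01, 2.71 and 2.40). In Model the order was Il6 (685 ± 328), Il27 (175 ± 73.8), Il12b (104 ± 6.06), Il12a (80.1 ± 16.9), Osm (23.3 ± 5.70), Il10 (18.3 ± 6.42), Ebi3 (10.98 ± 2.71), Lif (3.46 ± 0.200) and Il23a (1.38 ± 0.367), with the libraries of Osm and Il10 overlapping. In MUS, Il6 again led (576 ± 198), Il12b came next (131 ± 24.3), and Il12a (56.0 ± 5.79) and Il27 (53.8 ± 11.1) overlapped. Osm (34.3 ± 2.12) and Il10 (22.7 ± 2.88) followed, then Lif (5.32 ± 1.53) and Ebi3 (5.00 ± 2.29), which overlapped, and Il23a (0.863 ± 0.0965).

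The comparison of MUS with Model asks what muscone, added late in the LPS period, changed. None of the 8 cytokine genes tested was a DEG with limma, nor was any other gene tested (0 of 9794, 0%). The study, with DESeq2 on these libraries, reported DEGs in this comparison, most of them lower in MUS. The 0 here is thus a result of this test and does not show that muscone changed no gene. Without adjustment 825 genes had p under 0.05, voom gave 0 DEGs as well, and the model with the replicate number as a block gave 4. The MUS pair lay below the Model pair for Il27, Ebi3 and Il12a among the tested members, and for Il23a, against 21% of all genes tested. They lay above for Osm, Lif and Il12b, against 21.2%. Il6 and Il10 overlapped between the groups.

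**Figure D2:**
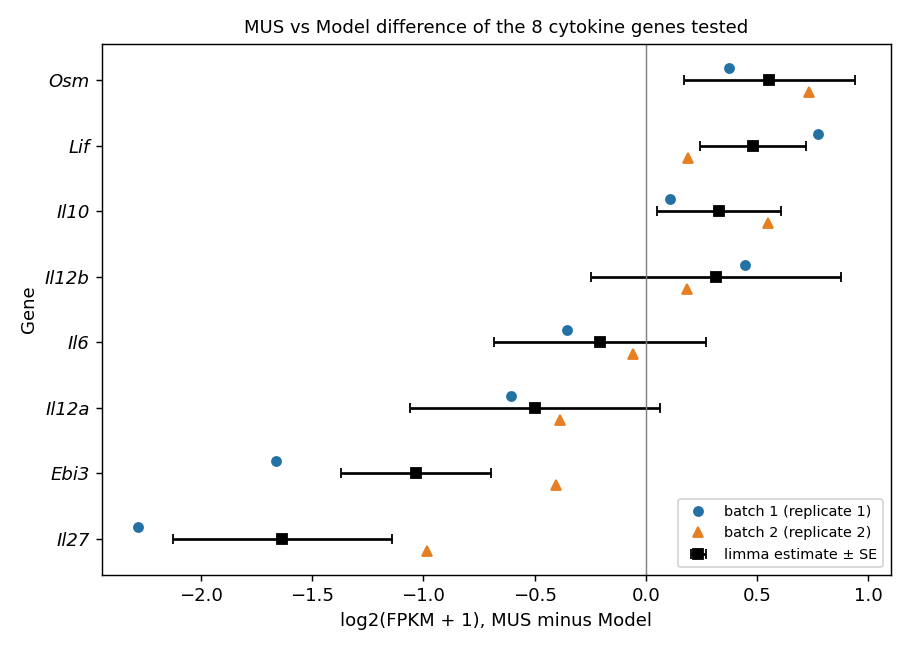
MUS minus Model difference in log2(FPKM + 1) for the 8 cytokine genes tested; squares with bars are limma estimates ± SE (2 libraries per group), circles the difference within batch 1 and triangles within batch 2. Il27 and Ebi3 lie farthest below 0, at -1.63 and -1.03, and both batches fall on the same side of 0 for each gene.

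Il27 and Ebi3, the subunits of IL-27, had the lowest values of the members in MUS vs. Model. The MUS mean was 30.7% of the Model mean for Il27 and 45.5% for Ebi3. Their log2 fold changes were -1.63 (SE 0.49) and -1.03 (SE 0.34), with unadjusted p = 0.0127 and 0.0180 and limma adjusted p = 0.463 and 0.466. Neither passed the correction, and 2 of 8 members with a lower value at an unadjusted p under 0.05 compare with 5.81% of all genes tested, while 0 of 8 had a higher one against 2.61%. Within batch 1 the differences were -2.28 and -1.66, and within batch 2 they were -0.99 and -0.40. Without Model replicate 1 they were -1.19 and -0.80, and without MUS replicate 1 they were -1.43 and -0.63. Without Model replicate 2 they were -2.075 and -1.27, and without MUS replicate 2 they were -1.84 and -1.43. The study lists Il27 among its genes changed in both comparisons of these libraries, so its direction here is not independent evidence.

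Each gene of this pair overlaps another gene, and the kit is not stated to mark strand, so fragments in the shared stretches cannot be assigned to one of them. Il27 (ENSMUSG00000044701, chr7:126589010-126594941, minus strand) overlaps Apobr on the opposite strand. Apobr had 7.62 and 5.45 FPKM in Control, 5.63 and 5.72 in Model, with 5.11 and 5.36 in MUS, a range far below that of Il27 in the treated cells. In Control, Apobr lay above Il27 (0.386 and 2.40 FPKM, from 9 and 56 fragments). The part of Apobr fragments in the Control level of Il27, and so in the Control ratio of Il27 to Ebi3, was not tested. Ebi3 (ENSMUSG00000003206, chr17:55952640-55957022, plus strand) overlaps the antisense gene Gm16712, which had at most 1.18 FPKM in a library. That was MUS replicate 1, where Ebi3 had 3.38 FPKM.

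The other members moved less between MUS and Model. Log2 fold changes were -0.50 for Il12a and 0.32 for Il12b (SE 0.56 each, limma adjusted p = 0.871 and 0.925), so the subunits of IL-12 had opposite signs. The Il12b to Il12a ratio was 1.18 and 1.47 in Model and 2.47 and 2.20 in MUS, against 0.216 and 0.902 in Control. This ratio was looked at after its values were seen and was not tested, and its groups did not overlap. Osm, Lif and Il10 had log2 fold changes of 0.56, 0.48 and 0.33 (limma adjusted p = 0.754, 0.668 and 0.812), and that of Il10 was -0.015 without Model replicate 2. Il6 had -0.21 (SE 0.48, limma adjusted p = 0.945), which turned to 0.30 without Model replicate 1 and 0.15 without MUS replicate 2. A p above the threshold does not show that these genes were equal in the 2 groups.

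In MUS vs. Control, which shares its Control libraries with Model vs. Control, 1980 genes were DEGs (20.2%), 1107 up (11.3%) and 873 down (8.91%). Here too the up to down split depended on scaling, with 885 up and 1102 down after quantile normalization. Scaling to the fragment totals gave 738 up and 1953 down, and voom 758 and 2386. Among the 8 tested members 7 were upregulated, with log2 fold changes of 8.62 for Il6, 6.07 for Il12b, 4.76 for Il12a, 4.64 for Il27, 4.36 for Il10, 2.90 for Osm and 2.45 for Lif (limma adjusted p between 0.000617 and 0.00422). As in Model vs. Control, Il6, Lif and Il10 owe their place among the tested genes to the treated libraries. Osm lost its call without MUS replicate 1 (limma adjusted p = 0.0556). Ebi3 was below Control in both MUS libraries, with a log2 fold change of -0.81 (SE 0.34, limma adjusted p = 0.122). It became a downregulated DEG after scaling to the fragment totals and with voom (-1.29 and -1.48, limma adjusted p = 0.0248 and 0.0264), settings in which the median of all genes lay at -0.39 and -0.48.

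Of the receptors that answer these ligands, few were expressed at the level of the filter. Of 7 IL-6 family receptors and partners 3 were tested, 0 rose and 1 fell in Model vs. Control, a comparison in which 9.5% of all genes tested rose and 5.56% fell. Their median log2 fold change was -1.03, against 0.04 for all genes. Il6ra, the IL-6 binding chain, had 8.85 and 4.43 FPKM in Control, 1.21 and 2.10 in Model, with 1.15 and 1.85 in MUS. All treated libraries were below both Control libraries. Its log2 fold change was -1.48 (limma adjusted p = 0.0290), a call lost in 7 of 14 alternatives with adjusted p of up to 0.158. Il6st, which encodes gp130, had 12.5 and 9.34 FPKM in Control, 3.33 and 6.77 in Model, with 6.60 and 7.13 in MUS, with a log2 fold change of -1.03 (limma adjusted p = 0.0689). It passed after scaling to the fragment totals, with voom and without Model replicate 2 (limma adjusted p = 0.0235, 0.0162 and 0.0338). Il11ra1, the IL-11 binding chain, had the smallest unadjusted p of the list in MUS vs. Model (unadjusted p = 0.0619, limma adjusted p = 0.625), with a log2 fold change of -0.67. Among the untested genes of the list, Osmr and Lifr, which encode receptor chains for oncostatin M and leukemia inhibitory factor, were higher in both Model than in both Control libraries. Osmr had 0.126 and 0.267 FPKM in Control, 1.00 and 1.35 in Model, with 1.66 and 1.34 in MUS. Lifr had 0.349 and 0.187 FPKM in Control, 0.671 and 0.761 in Model, with 1.10 and 1.10 in MUS. Both MUS libraries lay above both Model libraries for Lifr, while the groups overlapped for Osmr.

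Of the 4 receptor chains for IL-12, IL-23 and IL-27 only Il27ra reached the filter, with 1.74 and 2.79 FPKM in Control, 1.54 and 1.48 in Model, with 0.965 and 1.04 in MUS, and 0 of 1 was called in Model vs. Control (log2 fold change -0.36, limma adjusted p = 0.325). Il12rb1, Il12rb2 and Il23r stayed at or below 1.13 FPKM in every library. Of 6 IL-10 family receptors 3 were tested and 1 rose (9.5% of all genes). Il10ra, the ligand-binding chain of the IL-10 receptor, had 16.5 and 20.0 FPKM in Control, 40.7 and 39.7 in Model, with 25.5 and 30.01 in MUS. Model was highest without overlap, and Model vs. Control gave a log2 fold change of 1.10 (limma adjusted p = 0.0297), a call lost in 10 of 15 alternatives. Against Model, Il10ra in MUS had -0.52 (limma adjusted p = 0.668). Il10rb, the shared chain, had a log2 fold change of 0.63 in Model vs. Control (limma adjusted p = 0.172).

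Among 10 other ligands of the IL-6 and IL-10 families 3 were tested and all 3 rose in Model vs. Control (9.5% of all genes). All 3 were below 1 FPKM in both Control libraries and reached the filter through the treated ones, so the filter itself favors a rise here. Il19, an IL-10 relative, had 0 and 0.0761 FPKM in Control, 10.4 and 5.73 in Model, with 6.97 and 6.16 in MUS. Clcf1, a gp130 ligand, had 0.648 and 0.589 FPKM in Control, 3.76 and 5.48 in Model, with 1.68 and 2.32 in MUS. Il22, another IL-10 relative, had at most 0.0394 FPKM in Control and between 2.32 and 2.72 in the treated libraries. Log2 fold changes were 3.08, 1.78 and 1.77 (limma adjusted p = 0.00181, 0.00575 and 0.00401), and Clcf1 lost its call without the filter (limma adjusted p = 0.0552). Clcf1 was the ligand with the smallest p of this list in MUS vs. Model, where its log2 fold change was -0.90 (unadjusted p = 0.00783, limma adjusted p = 0.400), and that of Il19 was -0.21.

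Of 11 JAK kinases and STAT factors 10 were tested, and 5 rose and 0 fell in Model vs. Control, against 9.5% and 5.56% of all genes tested (median 1.40). Stat3, the factor downstream of gp130 and the IL-10 receptor, had 10.1 and 10.5 FPKM in Control, 54.5 and 56.5 in Model, with 50.3 and 56.8 in MUS. In Model vs. Control it rose with a log2 fold change of 2.32 (limma adjusted p = 0.00296), whereas MUS vs. Model gave -0.05 (limma adjusted p = 0.973). Jak2 and Stat2 had the largest log2 fold changes of the list in Model vs. Control, at 3.21 and 3.12 (limma adjusted p = 0.0142 and 0.0129), calls lost in 3 and 2 of 15 alternatives. In MUS vs. Model the smallest unadjusted p of the list were those of Jak1 and Stat5b (unadjusted p = 0.153 and 0.154, limma adjusted p = 0.733 each).

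The target and feedback genes of STAT3 were all expressed. Of 10 tested, 7 rose and 0 fell in Model vs. Control (all genes: 9.5% and 5.56%). Among these 7, Socs1 had a Control mean of 0.737 FPKM and reached the filter through the treated libraries, which favors a rise. In MUS vs. Model 0 were called, as among all genes tested, and the median log2 fold change was -0.57 against 0.01 for all genes. Socs3, which blocks gp130 signaling, had 3.30 and 13.6 FPKM in Control, 380 and 374 in Model, with 102 and 169 in MUS. Socs1, an inhibitor of JAK kinases, had 0.421 and 1.05 FPKM in Control, 12.0 and 9.90 in Model, with 2.46 and 3.13 in MUS. For both genes the MUS libraries lay between Control and Model without overlap. Their log2 fold changes in Model vs. Control were 5.58 and 2.80 (limma adjusted p = 0.00255 and 0.00180). The values for MUS vs. Model were -1.51 and -1.65 (unadjusted p = 0.0341 and 0.000326, limma adjusted p = 0.537 and 0.257), below 0 in all alternatives run.

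Bcl3 and Junb, a partner of NF-κB p50 and an AP-1 subunit, were also lower in both MUS than in both Model libraries, with log2 fold changes of -1.30 and -1.02 (limma adjusted p = 0.546 and 0.466). Nfil3, a transcription factor, went the other way, with 7.94 and 3.75 FPKM in Control, 34.1 and 25.8 in Model, with 80.3 and 65.1 in MUS. The groups did not overlap, and the log2 fold changes were 2.23 (Model vs. Control) and 1.26 (MUS vs. Model), with limma adjusted p = 0.00944 and 0.454 in this order. The first call was lost without Model replicate 1 and without the filter (limma adjusted p = 0.0588 and 0.0751). Il1rn, which encodes the IL-1 receptor antagonist, had 32.0 and 43.0 FPKM in Control, 904 and 681 in Model, with 898 and 837 in MUS. In Model vs. Control it rose by a log2 fold change of 4.36 (limma adjusted p = 0.00126), and its treated groups overlapped. Socs3, Socs1 and Nfil3 are also on the study's list of genes changed in both comparisons, so their directions are not independent evidence.

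**Figure D3:**
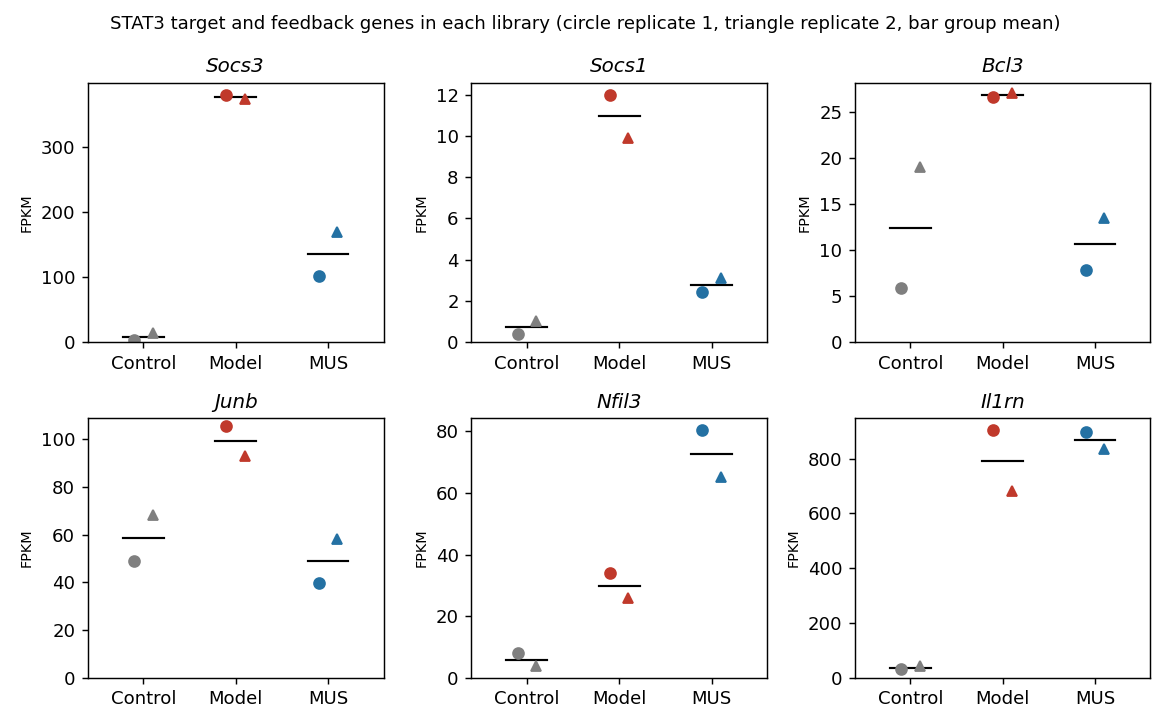
FPKM of 6 STAT3 target and feedback genes in each of the 6 libraries; circles are replicate 1, triangles replicate 2 and bars group means of 2 libraries, with each axis starting at 0. Socs3, Socs1, Bcl3 and Junb lie lower in both MUS than in both Model libraries, Nfil3 lies higher, and Il1rn overlaps.

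Among 17 transcription factors of cytokine induction 6 rose and 0 fell in Model vs. Control (median 0.85), where 9.5% of all genes tested rose and 5.56% fell. Nfkbiz, which encodes IκBζ, an activator of Il6 and Il12b, Nfkb2 and Nfkb1 had the largest log2 fold changes of the DEGs in this list, at 3.83, 2.79 and 2.27 (limma adjusted p = 0.0106, 0.0227 and 0.0331), lost in 2, 7 and 7 of 15 alternatives. In Control replicate 2 these genes held 15.3, 51.2 and 30.4 FPKM against 2.69, 12.9 and 7.86 in Control replicate 1. Cebpd and Rela had the smallest unadjusted p of the list in MUS vs. Model, with log2 fold changes of -1.47 and -1.23 (unadjusted p = 0.00473 and 0.0148, limma adjusted p = 0.380 and 0.463). Rela, the p65 subunit of NF-κB, had 98.1 and 68.0 FPKM in Model and 28.0 and 41.7 in MUS, against 34.4 and 58.3 in Control.

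Of 10 genes listed as stability factors of cytokine mRNA 5 rose and 1 fell in Model vs. Control (median 0.83). This compares with 9.5% up and 5.56% down among all genes tested. Of these 5, Arid5a was below 1 FPKM in both Control libraries and reached the filter through the treated ones. Zc3h12a (Regnase-1), which cleaves Il6 and Il12b mRNA, had 11.2 and 13.8 FPKM in Control, 73.4 and 84.7 in Model, with 75.3 and 89.8 in MUS. Zfp36 (tristetraprolin), which binds AU-rich elements, had 33.3 and 17.1 FPKM in Control, 129 and 123 in Model, with 116 and 123 in MUS. Log2 fold changes were 2.57 and 2.35 (limma adjusted p = 0.00306 and 0.00849). That of Tiparp, whose role in cytokine mRNA stability was not tested, was 1.81 (limma adjusted p = 0.00977). Without the filter Zfp36 and Tiparp lost their calls (limma adjusted p = 0.0664 and 0.0558). Zfp36l2 fell with a log2 fold change of -1.81 (limma adjusted p = 0.0211), a call lost in 6 of 15 alternatives. In MUS vs. Model Zfp36l2 and Khsrp had the smallest unadjusted p of the list (unadjusted p = 0.178 and 0.267, limma adjusted p = 0.749 and 0.808).

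The AU-rich pentamer ATTTA, bound by Zfp36, was counted in the longest annotated 3′ untranslated region of each member. It occurred 10 times in Il6, 7 in Lif, 6 each in Il12a, Il12b, Il23a, Osm and Il10, 5 in Il27 and 1 in Ebi3. So 8 of 9 members had at least 5, compared with 25.1% of the 18078 protein-coding genes with a region of at least 200 bases. Per kilobase the counts ranged from 2.20 in Lif to 17.5 in Il27, with 4.08 in the short region of Ebi3 (245 bases), against a median of 1.49. This search was made after the data were seen and is a description. The densest clusters of Il12a, Il12b and Il27 are shown as examples from the IL-12 family, with the pentamers in capitals.
Il12a: ATTTAtATTTATTTAttttctATTTA
Il12b: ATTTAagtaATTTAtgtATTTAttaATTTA
Il27: ATTTAtttcttggatATTTATTTA

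Promoter sequences from RefSeq on GRCm38.p6 were at hand for 5 of the 9 members, Il6, Il12a, Il12b, Lif and Ebi3, in 6 windows. The 250 bases before the start were searched on both strands for the κB consensus, TGANTCA (AP-1), TTGCNNAA (C/EBP), GAAANNGAA (interferon response) and TATAAA (bound by TBP). The κB consensus matched in 3 of 6 windows, against 7.25% of 32851 promoters of the same length, AP-1 in 2 (6.75%), C/EBP in 1 (9.56%), and the interferon response letters and TATAAA in 0 (7.13% and 12.4%). Il6 held the κB consensus, AP-1 and C/EBP letters, beginning 44, 249 and 128 bases before the start. Ebi3, which did not pass the test, held a κB match that also began 44 bases before its start. A match is not evidence of a site in use. The Il6 window (chr5:30012864-30013113), the end of the Ebi3 window (chr17:55952503-55952622) and the beginning of the Lif window (chr11:4257318-4257437), all plus strand, are shown with matches in capitals because they hold all matches found.
Il6: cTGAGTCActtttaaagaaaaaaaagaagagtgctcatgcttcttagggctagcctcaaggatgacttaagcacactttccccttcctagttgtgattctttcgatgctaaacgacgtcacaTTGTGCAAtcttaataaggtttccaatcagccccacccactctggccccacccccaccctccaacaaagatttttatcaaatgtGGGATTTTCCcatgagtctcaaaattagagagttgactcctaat
Ebi3: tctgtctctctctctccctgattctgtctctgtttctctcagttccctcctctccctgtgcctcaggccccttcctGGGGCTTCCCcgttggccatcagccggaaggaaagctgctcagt
Lif: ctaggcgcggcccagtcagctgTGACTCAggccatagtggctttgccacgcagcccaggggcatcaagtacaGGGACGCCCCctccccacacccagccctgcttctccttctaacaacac

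Genes with the most similar profiles over the 6 libraries were sought by Euclidean distance between centred log2(FPKM + 1) values among the 9794 genes, with Pearson's r over 6 libraries as a description only, since 3 treatment groups shape all of them. The nearest to Il6 were Edn1 and Ccl7 (distance 1.25 and 2.09, r = 1.000 and 0.996). Il27 was nearest to Ch25h and Socs3 (0.911 and 1.04, r = 0.991 and 0.992), and Ch25h had 140 and 77.9 FPKM in Model and 61.6 and 45.9 in MUS. Il10 was nearest to Gm18445 and Il1rn (0.445 and 0.482), Il12a to Slfn1 and Serpinb2 (0.492 and 0.611), and Il12b to Ifi206 and Usp18 (0.455 and 0.702). Osm was nearest to Fcgr4 and Thbs1 (0.196 and 0.585), Lif to Pnpt1 and Dusp1 (0.306 and 0.314), and Ebi3 to Cox8a and Chmp1a (0.159 and 0.215). Cox8a, a subunit of cytochrome c oxidase, had 85.0 and 104 FPKM in Control, 140 and 90.7 in Model, with 39.5 and 69.6 in MUS. Ebi3 and Cox8a thus shared the order of their 6 libraries.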

How the data were processed

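RNA-seq libraries of 3 groups with 2 replicates each were analysed. The authors deposited one table of FPKM per gene and library. The study's methods name RSEM for quantification, whereas the submitters' processing notes list HISAT2, featureCounts 1.5.0-p3 and GRCm39, although the gene positions are those of GRCm38. FPKM times gene length was a whole multiple of 1 step per library for 100% of low values (tolerance 0.1 of a step), which gave the fragments. No per-sample column lacked a sample.

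The tests on log2(FPKM + 1) came from limma 3.58.1 under R 4.3.3 (lmFit, then contrasts.fit, then eBayes using a mean-variance trend, 3 residual and 4.04 prior degrees of freedom, two-sided). Tables and plots used Python 3.11.15, pandas 2.3.3, NumPy 2.4.6 and Matplotlib 3.10.9. This model was tested on simulated data. The simulation held independent noise and no library-wide shift or scale difference, so it cannot show how the p-values behave under those seen here. DESeq2, which the study used, takes counts and was not run. Alternatives were another pseudocount (0.1), no filter, a mean FPKM of at least 5, only the groups compared, no trend, 3 scalings, the replicate block and leaving out each library.

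The labels give the replicate number as the batch, which pairs the libraries. Differences between replicates correlated across genes at 0.12 between Control and Model, at 0.14 between Model and MUS, and at -0.09 between Control and MUS. With the number as a block, 1582 DEGs were found in Model vs. Control, 4 in MUS vs. Model and 2125 in MUS vs. Control, with 7, 0 and 7 cytokine genes.

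The members and lists were chosen with earlier results of these data known. Genes named are the members, of each of 8 lists the 3 DEGs with the largest absolute log2 fold changes in Model vs. Control and the 2 genes with the smallest p in MUS vs. Model, and receptor, feedback and marker genes. Some genes that this rule covers are not reported. The 2 genes nearest to each member with a mean FPKM of at least 1 were named for likeness.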

Additional observations from a re-analysis of the deposited data

How the results depend on the processing

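The number of cytokine genes called moved by at most 1 between settings, from 7 to 6 in Model vs. Control and from 7 to between 6 and 8 in MUS vs. Control, and was 0 in MUS vs. Model in every setting. The totals of DEGs moved more. In Model vs. Control they were 260 without the filter, 797 with only the 2 groups compared and 2734 with voom, and 692 to 2077 on leaving out 1 library. In MUS vs. Model they were 1 with a pseudocount of 0.1, 7 with only the 2 groups, 4 with the replicate block and 0 to 31 on leaving out 1 library, and in MUS vs. Control 456 without the filter, 3144 with voom and 184 to 2398 on leaving out 1 library. The replicate block changed no call of a cytokine gene.

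Directions turned in few cases, none of them of a call. In Model vs. Control Ebi3 went to -0.28 with fragment totals and -0.30 with voom, and Junb to -0.015 with quantile normalization. On leaving out 1 library, Ebi3 ranged from -0.0078 to 0.46 and Il11ra1 from -0.53 to 0.059 in Model vs. Control. In MUS vs. Model the ranges were -0.71 to 0.30 for Il6, -0.015 to 0.68 for Il10, -0.59 to 0.17 for Il19, -0.33 to 0.16 for Il6ra, -0.14 to 0.033 for Stat3 and -0.060 to 0.35 for Il1rn. The cause was not tested. Leaving out 1 library leaves a group with 1, which is then assumed to vary like the others. Counts of 0 to 5 fragments in Control limit the precision of the fold changes of Il6, Il12a, Il12b, Il23a and Il10.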
